A study of Rattus norvegicus with 12 samples.

Results

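The arrays described here are 6 of the 12 in the study: the kidney cortex of 3 male Fisher 344 rats given 300 mg/kg cephaloridine, called the middle dose, and of 3 rats given the saline vehicle alone, called control. They were chosen by their titles. All animals were 8 weeks old and received 1 intravenous dose of drug dissolved in saline, or saline only. They were killed 24 h later, and each gave 1 array. Rats given 150 mg/kg (low dose) and 600 mg/kg (high dose), 3 each, serve only to place the middle dose in the series. The study set out to profile renal gene expression at doses it calls subtoxic and toxic, without stating which dose is which.

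Cephaloridine is a cephalosporin antibiotic that the organic anion transporters of the proximal tubule take up from blood faster than it can leave across the luminal membrane. It therefore collects in proximal tubule cells, where it is known to deplete glutathione and to damage lipids and mitochondria. The kidney meets such stress with the antioxidant programme of the transcription factor NRF2, with conjugating enzymes and export pumps. When tubule cells are injured, they raise injury genes such as Havcr1 (the gene of KIM-1) and enter the cell cycle to repair the epithelium.

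Signals are given as scaled signal, with the 75th percentile of each array set to 100, and a change is the log2 of the middle dose minus that of control. The 12 arrays were alike, with medians from 65.1 to 74.8, 59.3% to 63.3% of probes well above background and 0 saturated spots. Of 20760 genes and unnamed transcripts tested, 2630 passed at an adjusted p under 0.05 (12.7%), 1627 higher (7.84%) and 1003 lower (4.83%) at the middle dose. Most changes were small, with a median size of 0.30 on the log2 scale among those called, and many rested on single arrays: 697 genes were called without control 1 and 669 without control 2. Only 36 genes that were called rose by 2-fold or more (0.173%) and 22 fell by as much (0.106%). Arrays of both groups did not overlap for 6765 genes (32.6%), 4167 higher (20.1%) and 2598 lower (12.5%). The split between higher and lower moved to 1971 and 724 when arrays were scaled by their medians, and to 2049 and 722 in the authors' value table.

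Middle and control arrays never shared a slide. Slide 1 carried all controls and low animal 1, slide 2 low 2 and middle 1, slide 3 low 3 and middle 2, and slide 4 middle 3 with the high animals. A value blocked by slide can still be had through the low animals: the difference of low 1 from the controls is added to the average difference of middle 1 from low 2 and of middle 2 from low 3. By that route 46 genes were called (0.222%), 26 higher (0.125%) and 20 lower (0.0963%), 26 genes were called by both fits (0.125%), and 3812 had an unadjusted limma p under 0.05. Its median standard error was 0.123 against 0.0758 without the block. Of the 2630 genes called, 2615 kept their sign. Both fits use the same controls, middle 1 and middle 2, so the kept signs are no check on slide. Of 124 genes singled out here and called, 14 were also called in the slide-blocked fit: Ugt2b7, Ugt2b15, Ugt2b35, Abcc2, Nqo1, Pir, Alas1, Apoa4, Fbp2, Acaa2, Acaa1b, Ptgr1, Tph1 and Lgals2. None of the others was, whether or not the value is printed below, and the part that slide played in the small changes was not tested.

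**Figure D1:**
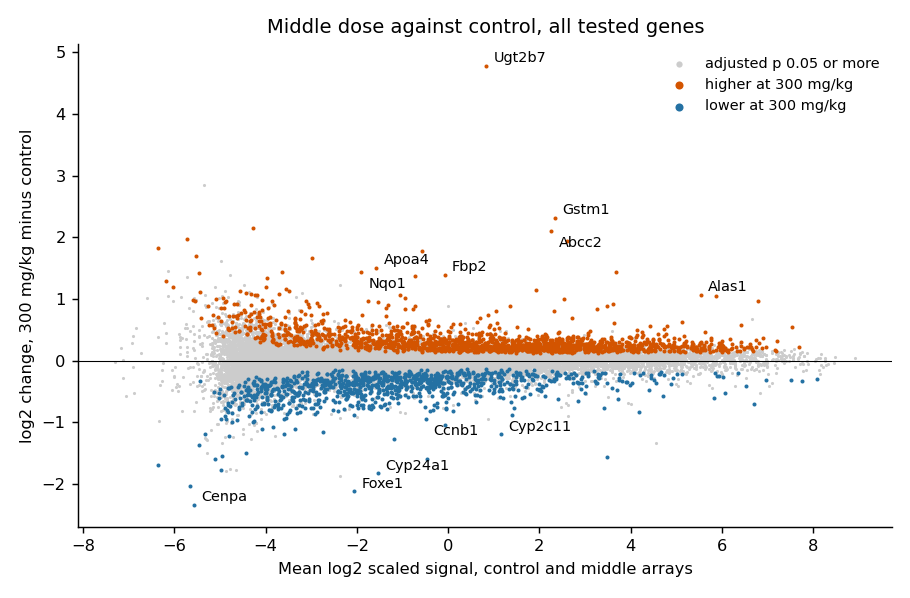
Each point is 1 of the 20760 genes tested, with the mean log2 scaled signal over the 6 control and middle arrays on the horizontal axis (0 is the array's 75th percentile) and the log2 change at 300 mg/kg on the vertical axis. Orange points are the 1627 genes called higher and blue points the 1003 called lower; most lie close to 0, and Ugt2b7 stands apart at 4.78.

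Among the largest rises at the middle dose were those of drug conjugation genes and of the export pump gene Abcc2. The largest change of all named genes was that of Ugt2b7, a glucuronosyltransferase that joins glucuronic acid to drugs and hormones. Its scaled signal was 25.7, 35.9 and 43.2 in the controls and 1057, 1045 and 746 at the middle dose. Every middle animal thus lay far above every control. The change was 4.78 ± 0.20 (limma standard error, n = 3 animals per group, as for every error below), 27.5-fold, with adjusted p = 6.93e-06, and the slide-blocked change was 4.72 (adjusted p = 0.00801). Low animals read 283, 280 and 389 and high animals 1337, 1204 and 1361, so the middle animals were nearer to the high ones. The middle dose differed from the low dose (adjusted p = 0.0166) and did not pass the test against the high dose (adjusted p = 0.125).

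Conjugation genes rose with it. Of 17 genes tested for glucuronidation, sulfation and related steps, 7 rose and 0 fell (2 were lower at an unadjusted limma p under 0.05), and their median change was 0.16 against 0.02 over all genes. These counts stand beside 7.84% higher and 4.83% lower over all genes. At the low and high doses the median change of the 17 was 0.07 and 0.36. Ugt2b15 read 244, 252 and 267 in controls and 618, 637 and 449 at the middle dose, a change of 1.14 ± 0.13 (adjusted p = 0.00208; slide-blocked 1.63, adjusted p = 0.00724). The abundant Ugt2b35 read 4007, 4122 and 4118 against 8735, 9533 and 7192, a change of 1.05 ± 0.10 (adjusted p = 0.00087; slide-blocked 1.39, adjusted p = 0.00724). Both are paralogs of Ugt2b7, and probes of this family can share sequence. Ugt1a6, which glucuronidates small phenols, rose from 390, 387 and 457 to 908, 685 and 877 (0.99 ± 0.12, adjusted p = 0.0022; slide-blocked 1.06, adjusted p = 0.11). The low animals read 876, 758 and 862 for Ugt1a6, in the range of the middle animals. Ugt1a2, the sulfotransferase gene Sult1c3 and Gsto1 completed the group of risers, with changes of 0.42, 0.52 and 0.16.

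Abcc2, the pump that sends glucuronide and glutathione conjugates across the brush border into urine, read 223, 218 and 253 in controls and 1042, 1109 and 854 at the middle dose. The groups did not overlap, and the change was 2.11 ± 0.11, 4.31-fold (adjusted p = 2.24e-05; slide-blocked 2.07, adjusted p = 0.00724). Here the doses separated: the low animals read 330, 336 and 399, the high animals 1849, 1716 and 1923, and the middle dose differed from both (adjusted p = 0.000689 and 0.000493). Abcc3, a conjugate pump of the opposite cell membrane, rose by less, from 54, 52.6 and 51.4 to 68.8, 69.1 and 66.6 (0.37 ± 0.06, adjusted p = 0.00562; slide-blocked 0.28, adjusted p = 0.228).

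**Figure D2:**
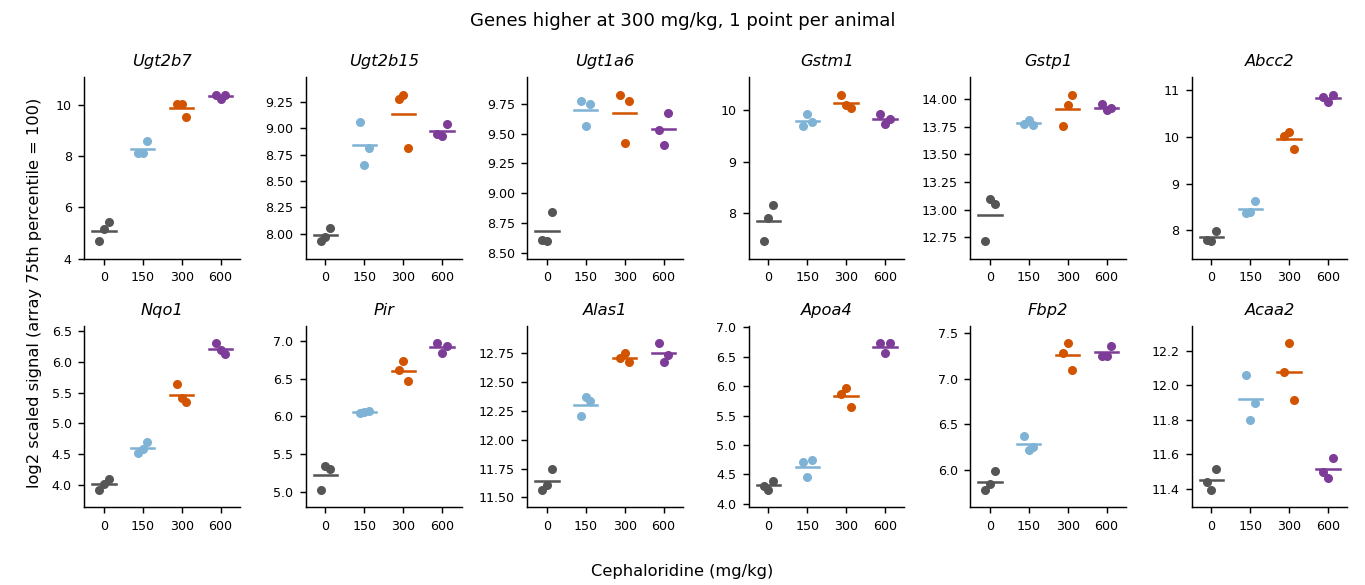
Each panel shows 1 gene, with cephaloridine in mg/kg on the horizontal axis and the log2 scaled signal (array 75th percentile = 100) on the vertical axis; points are single animals and bars the mean of 3. All 12 genes lie higher in the 3 animals at 300 mg/kg than in the 3 controls; Abcc2, Nqo1 and Apoa4 lie higher still at 600 mg/kg, while Acaa2 at 600 mg/kg lies near control.

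Many antioxidant and glutathione genes rose. Of 42 tested members of the NRF2 list 20 rose and 1 fell, beside 7.84% higher and 4.83% lower over all genes, and the median change was 0.19. In the slide-blocked fit 2 members were called higher and 0 lower (21 and 2 at an unadjusted limma p under 0.05), with a median of 0.25, and 10 were called higher when only middle and control arrays were fitted. Gstm1, a glutathione transferase, read 175, 240 and 285 in controls and 1265, 1097 and 1062 at the middle dose (2.32 ± 0.15, 4.98-fold, adjusted p = 5.68e-05; slide-blocked 2.21, adjusted p = 0.0621). Its low animals read 825, 970 and 875, and the test between those doses was not passed (adjusted p = 0.295). Gstp1, another transferase, read 6717, 8739 and 8461 in controls and 13815, 15827 and 16866 at the middle dose (0.96 ± 0.10, adjusted p = 0.00107; slide-blocked adjusted p = 0.108). Glutathione transferases, too, are a family whose probes can share sequence.

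Nqo1, the quinone reductase used as the standard readout of NRF2, rose from 15.2, 16.3 and 17.1 to 49.7, 42.5 and 40.7 (1.45 ± 0.08, 2.73-fold, adjusted p = 3.82e-05; slide-blocked 1.38, adjusted p = 0.0315). It was graded by dose, with 22.9, 24.1 and 25.9 at the low dose and 78.5, 73.2 and 69.4 at the high dose, and the middle dose differed from each (adjusted p = 0.00285 and 0.000316). Pir, an iron-binding nuclear protein gene, rose from 32.6, 40.6 and 39.5 to 97.8, 106 and 88.6 (1.38 ± 0.09, adjusted p = 4.81e-05; slide-blocked adjusted p = 0.0317). Srxn1, which restores oxidised peroxiredoxins, rose from 3.13, 4.28 and 4.11, with only 2 control arrays above background, to 9, 7.97 and 7.17 (1.07 ± 0.15, adjusted p = 0.00474; slide-blocked adjusted p = 0.168). Taldo1 and Tkt, of the pentose phosphate path that supplies NADPH, rose by 0.31 and 0.22. Peroxide-handling members rose as well, namely Gpx2 (0.73), Txn1 (0.36) and Prdx1 (0.34), as did Akr1b8 (0.92) and Ephx1 (0.57), which detoxify aldehydes and epoxides.

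Other well-known NRF2 targets did not pass the test. Gclc, the catalytic subunit of the rate-limiting step of glutathione synthesis, read 2784, 2889 and 2777 in controls and 2644, 2451 and 3144 at the middle dose (change of -0.04 ± 0.09, adjusted p = 0.773). Its partner Gclm did not pass either (0.33 ± 0.19, adjusted p = 0.28) and was above background on 1 control array. Hmox1, the heme-degrading enzyme, read 94.5, 90.3 and 94.7 against 121, 93.4 and 98.7 (0.16 ± 0.11, adjusted p = 0.39), whereas the high animals read 1175, 898 and 1109. The difference of the middle from the high dose for Hmox1 was -3.34 on the log2 scale (adjusted p = 7.14e-07). Gpx3, the plasma glutathione peroxidase made in the proximal tubule, fell from 13881, 13610 and 14329 to 12159, 11056 and 10677 (-0.31 ± 0.08, adjusted p = 0.0318), but its slide-blocked change was -0.01.

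Promoters of 3 members that rose are shown because each holds a core antioxidant response element, the letters TGACNNNGC, to which NRF2 binds with small MAF proteins. The sequences are the 250 bases before the first listed RefSeq start of the gene in build GRCr8, 5′ to 3′ on the strand of the gene, and capitals mark the element on either strand (GCNNNGTCA when it lies on the other strand). Gstp1 lies at chr1:210769706-210769955 on the minus strand, Gpx2 at chr6:101230034-101230283 on the minus strand, and Prdx1 at chr5:135383656-135383905 on the plus strand.
Gstp1: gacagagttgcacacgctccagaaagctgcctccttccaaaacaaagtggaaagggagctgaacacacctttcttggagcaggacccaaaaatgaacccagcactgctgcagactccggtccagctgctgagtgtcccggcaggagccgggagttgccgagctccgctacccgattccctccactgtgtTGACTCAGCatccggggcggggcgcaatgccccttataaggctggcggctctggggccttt
Gpx2: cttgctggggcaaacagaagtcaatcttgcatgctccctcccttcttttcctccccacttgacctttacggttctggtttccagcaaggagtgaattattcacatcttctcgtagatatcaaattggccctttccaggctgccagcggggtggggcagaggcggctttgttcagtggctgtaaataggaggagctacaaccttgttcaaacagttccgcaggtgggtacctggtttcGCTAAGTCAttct
Prdx1: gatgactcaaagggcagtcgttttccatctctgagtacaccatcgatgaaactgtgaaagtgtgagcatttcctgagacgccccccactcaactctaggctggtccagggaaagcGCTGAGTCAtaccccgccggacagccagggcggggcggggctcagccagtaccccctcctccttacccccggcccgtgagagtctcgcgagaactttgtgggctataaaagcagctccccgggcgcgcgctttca
The element starts 61 bases before the start in Gstp1, 13 in Gpx2 and 135 in Prdx1. Of the 20 members that rose, 16 had a promoter in the table and 4 of those held the element (25%), the fourth being Gsta3. The share was 3 of 18 (16.7%) among members that were not called, 12.5% of 9009 tested genes with a promoter and 10.2% of all 27457 promoters. These shares are descriptions of the letters in this window.

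Genes of heme synthesis and iron handling rose in part. Of 31 tested, 9 rose and 0 fell (1 at an unadjusted limma p under 0.05), with a median change of 0.06, and 3 were called higher without control 1 and 3 without control 2. The shares over all genes were 7.84% higher and 4.83% lower. With slide as a block 1 heme or iron gene was called higher, and with only middle and control arrays in the fit 2 were. Alas1, the rate-limiting enzyme of heme synthesis and also the source of heme for cytochromes, read 3032, 3129 and 3434 in controls and 6685, 6885 and 6546 at the middle dose (1.07 ± 0.07, 2.1-fold, adjusted p = 4.81e-05; slide-blocked 0.94, adjusted p = 0.0455). Low animals read 4721, 5311 and 5171 and high animals 7313, 6537 and 6812, and the middle dose differed from the low dose (adjusted p = 0.0455) but did not pass the test against the high dose (adjusted p = 0.729). Later steps of the path also rose by small amounts, among them Ppox (0.23), Urod (0.18) and Alad (0.16). Tfrc, the transferrin receptor, rose from 349, 368 and 419 to 603, 817 and 584 (0.81 ± 0.12, adjusted p = 0.00484; slide-blocked adjusted p = 0.0859). Fth1, the ferritin heavy chain, rose by 0.31, Blvrb, the biliverdin and flavin reductase, by 0.70, and Aco1, the cytosolic aconitase and iron sensor, by 0.17.

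Lipid and sugar genes held several of the clearest changes. Apoa4, an apolipoprotein, rose from 19.8, 18.9 and 21 to 58, 62.8 and 49.9 (1.51 ± 0.10, 2.85-fold, adjusted p = 5.68e-05; slide-blocked 1.70, adjusted p = 0.00824). Fbp2, a fructose bisphosphatase of gluconeogenesis, rose from 55, 57.6 and 63.3 to 156, 168 and 137 (1.39 ± 0.08, adjusted p = 3.82e-05; slide-blocked 1.60, adjusted p = 0.00801), and its high animals, at 152, 153 and 164, lay in the same range. In both genes all middle animals were above all controls and above all low animals. Of 32 cholesterol and lipid synthesis genes 7 rose and 0 fell (3 at an unadjusted limma p under 0.05), with a median of 0.17, and 2 were called without control 1 and 2 without control 2. The risers included Cyp51, Acat2, Fdps, Hsd17b7, Fdft1 and Tm7sf2, each by 0.20 to 0.30. The shares over all genes were 7.84% higher and 4.83% lower. In the slide-blocked fit 0 of the 32 were called (3 higher at an unadjusted limma p under 0.05), with a median of 0.08.

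A pair of thiolases of fatty acid oxidation rose at the middle dose and were back near control at the high dose. Acaa2, the mitochondrial enzyme, read 2772, 2690 and 2924 in controls, 4327, 4852 and 3868 at the middle dose and 2888, 2818 and 3061 at the high dose. The rise at the middle dose was 0.63 ± 0.09 (adjusted p = 0.00449; slide-blocked 0.93, adjusted p = 0.0315), and it exceeded the high dose (adjusted p = 0.00163). Acaa1b, the peroxisomal enzyme, read 6745, 7142 and 7041, then 9808, 10639 and 10705, then 7152, 7446 and 7617 in the same order (0.57 ± 0.07, adjusted p = 0.00301; slide-blocked adjusted p = 0.0315; 0.00128 against the high dose). Low animals were as high as middle ones for Acaa1b, at 11958, 9896 and 10054. Of the whole fatty acid oxidation list, 4 of 46 rose and 3 fell, near the shares over all genes, with a median of 0.04 that was -0.01 after quantile normalization. Acsl1 and Acsl3, which activate fatty acids, rose by 0.22 and 0.20, and Ppargc1a, the coactivator of mitochondrial genes, fell by 0.38. The 4 probes of Acsl1 ran from -0.12 to 0.22. Acsl1 was not called when any 1 of the controls, middle 1 or middle 2 was left out.

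**Figure D3:**
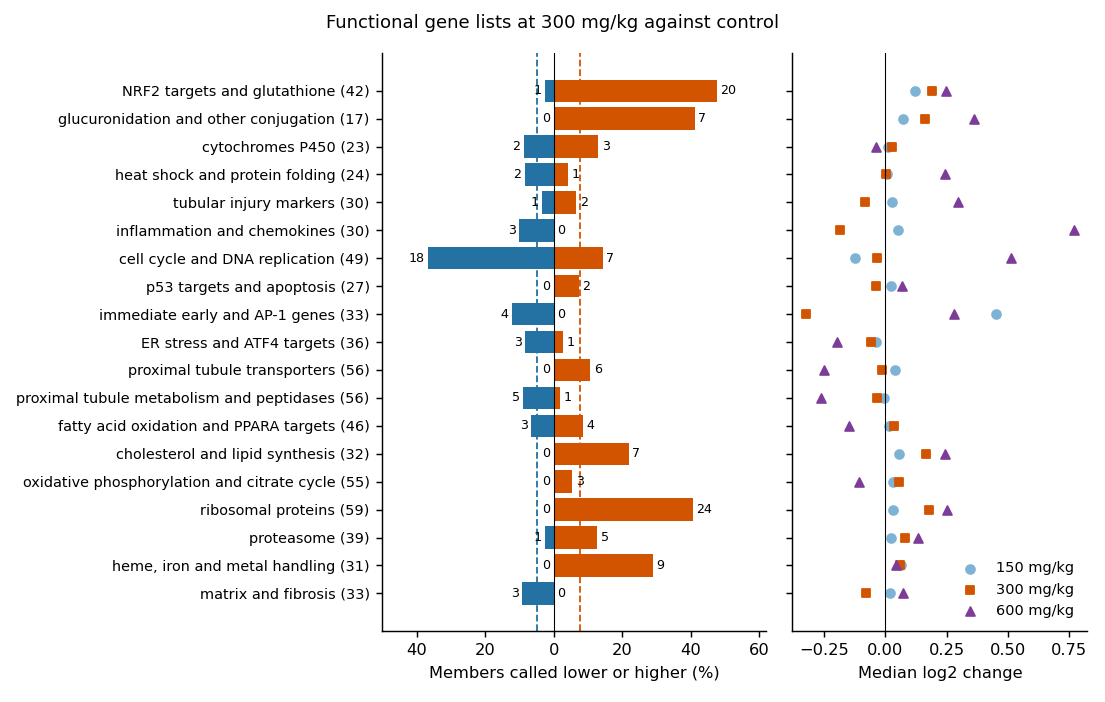
Left, the percent of tested members of each functional list called higher (orange) or lower (blue) at 300 mg/kg, with counts at the bars, the number tested in parentheses and dashed lines at the shares over all genes (7.84% and 4.83%). Right, the median log2 change against control at each dose; all doses share the same 3 controls, and injury, inflammation and cell cycle lists have medians of 0.30, 0.77 and 0.51 at 600 mg/kg against -0.08, -0.19 and -0.03 at 300 mg/kg.

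Ribosomal protein genes shifted by a small amount. Of 59 tested, 24 rose and 0 fell (0 at an unadjusted limma p under 0.05), beside 7.84% higher and 4.83% lower over all genes. The median of the 59 was 0.18, and every call lay between 0.15 and 0.29. Rplp0 of the ribosomal stalk read 418, 418 and 430 in controls and 511, 471 and 571 at the middle dose (0.29 ± 0.07, adjusted p = 0.0216). This count rested on single arrays: 3 were called without control 1, 2 without control 2 and 41 without middle 1. In the slide-blocked fit 0 were called (20 higher and 1 lower at an unadjusted limma p under 0.05), with the median again at 0.18. Without the low and high arrays in the fit 0 of the 59 were called (31 higher at an unadjusted limma p under 0.05), and 4 were called without the filter on dim probes. Proteasome genes showed less, with 5 of 39 higher (among them the catalytic subunits Psmb5 and Psmb7, by 0.25 and 0.28) and 1 lower; 1 was higher without control 1 and 1 without control 2.

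Cell cycle genes were called in both directions. Of the 49 tested members of the list 18 fell and 7 rose, beside 4.83% lower and 7.84% higher over all genes. The list median was -0.03 (0.0034 when arrays were scaled by their medians and 0.0038 in the authors' table). Most of the genes that fell act in mitosis or at its entry, and the others included the G1 cyclins Ccnd1 and Ccnd2 (-0.36 and -0.26). Other mitotic members did not pass, with changes of -0.45 for Bub1b, -0.19 for Tpx2, -0.06 for Aurkb and -0.03 for Kif11 (adjusted p = 0.0645, 0.234, 0.444 and 0.798). Ccnb1, the mitotic cyclin, read 112, 89.5 and 98.9 in controls and 55.9, 56.2 and 44.6 at the middle dose (-0.94 ± 0.11, adjusted p = 0.00179; slide-blocked -0.84, adjusted p = 0.105). Its kinase Cdk1 read 359, 325 and 382 against 216, 250 and 169 (-0.76 ± 0.14, adjusted p = 0.0102; slide-blocked -0.59, adjusted p = 0.189). For both genes the groups were fully apart. Mki67, the proliferation marker, fell by 0.78 (29.3, 24.9 and 27.4 against 18.4, 17.2 and 12.5; adjusted p = 0.00719; slide-blocked -0.63, adjusted p = 0.119).

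Further members of the mitotic machinery, outside the list, were among the largest falls of the whole comparison. Prc1, which bundles microtubules at the midzone, fell from 15.5, 14.2 and 13.5 to 7.85, 6.21 and 6.05 (-1.11 ± 0.10, adjusted p = 0.000493; slide-blocked -1.01, adjusted p = 0.0713). Knstrn and Ska1, of the spindle and kinetochore, fell by 1.15 and 1.07 (adjusted p = 0.000842 and 0.0062). Cenpa, the centromeric histone, read 3.78, 4.82 and 5.74 in controls and was not above background in any middle animal, a fall of at least 1.64-fold (adjusted p = 0.0108; slide-blocked adjusted p = 0.224). Bounds of this kind set the bright group against the lowest signal called above background on each array of the dim group. Low animals read near middle animals, as with Ccnb1 at 58.7, 57.3 and 60.4. Ccnb1, Cdk1, Mki67, Prc1 and Ska1 did not pass the test between those doses (adjusted p = 0.438, 0.975, 0.611, 0.145 and 0.458). Low animal 1, which shared slide 1 with the controls, read 58.7 for Ccnb1 and 210 for Cdk1, below all 3 controls.

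The 7 members that rose have roles in DNA replication. Cdt1, the licensing factor, rose from 9.89, 8.12 and 9.84 to 12.8, 13.8 and 14.3 (0.56 ± 0.09, adjusted p = 0.00693; slide-blocked 0.37, adjusted p = 0.274). Its partner Cdc6 rose from 6, 6.02 and 5.92 to 7.44, 7.68 and 8.54 (0.40 ± 0.07, adjusted p = 0.0113; slide-blocked 0.18, adjusted p = 0.4). The helicase subunits Mcm3, Mcm2 and Mcm6 rose by 0.30, 0.29 and 0.27, the clamp loader Rfc3 by 0.24 and the primase Prim1 by 0.22. Other replication genes of the list did not pass, among them Mcm4 (0.21), Mcm5 (0.08), Mcm7 (-0.03), Pcna (0.03) and Pole (0.19), with adjusted p = 0.34, 0.658, 0.742, 0.771 and 0.112. These rises were small beside those at the high dose, where Cdc6 read 30, 27.3 and 31 and Cdt1 40.9, 36.9 and 38.9. Ccne1, the cyclin of S-phase entry, read 38.7, 37.9 and 44.1 in controls and 56.2, 49.7 and 46 at the middle dose, with no overlap but with adjusted p = 0.113. The counts of 18 and 7 were the same under quantile and median scaling and in the authors' table. Without control 1 they were 13 and 3, without control 2 15 and 4, and with only middle and control arrays in the fit 2 and 0. In the slide-blocked fit 0 of 49 were called (15 lower and 6 higher at an unadjusted limma p under 0.05), with a median of -0.04.

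**Figure D4:**
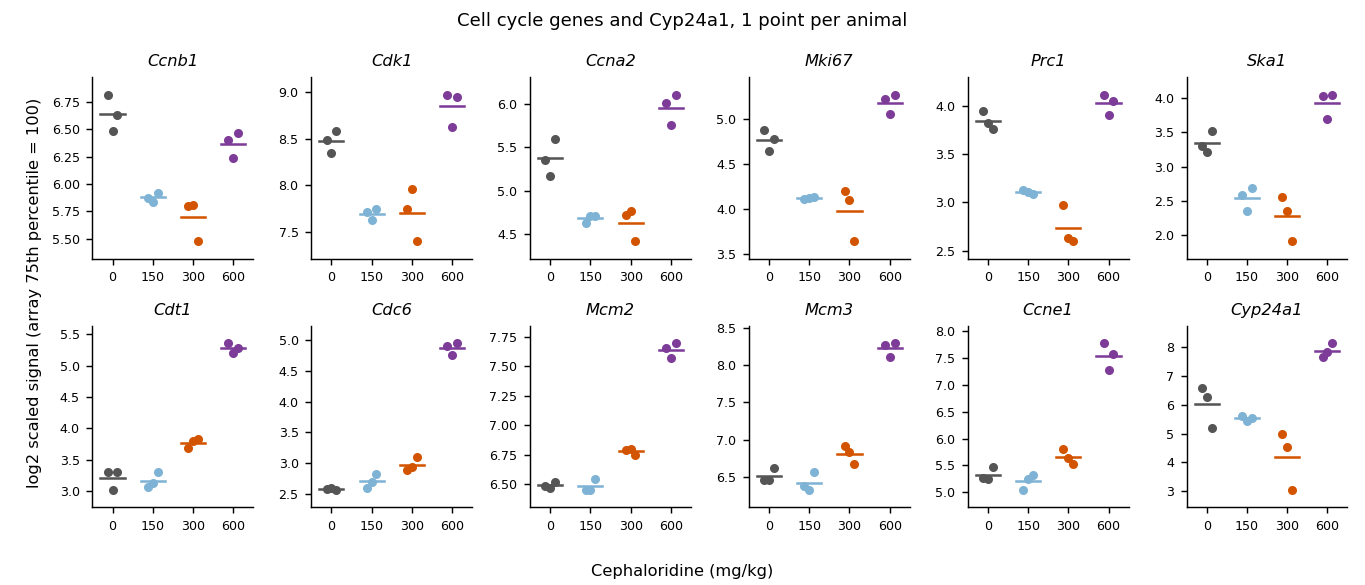
Each panel shows 1 gene, with cephaloridine in mg/kg on the horizontal axis and log2 scaled signal (array 75th percentile = 100) on the vertical axis; points are single animals and bars the mean of 3. Mitotic genes (top row) lie lower at 150 and 300 mg/kg than in controls and higher again at 600 mg/kg, while Cdt1, Cdc6, Mcm2 and Mcm3 lie slightly above control at 300 mg/kg and far above it at 600 mg/kg.

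Promoters of 3 genes that fell are shown for the cell cycle homology region, the letters TTTGAA, through which the DREAM and MuvB complexes time mitotic genes. They are the 250 bases before the first listed RefSeq start in GRCr8, 5′ to 3′ on the strand of the gene, with the element in capitals on either strand (TTCAAA on the other). Cdk1 lies at chr20:19265043-19265292 on the plus strand, Mki67 at chr1:199952594-199952843 on the minus strand and Ccnf at chr10:13783670-13783919 on the minus strand.
Cdk1: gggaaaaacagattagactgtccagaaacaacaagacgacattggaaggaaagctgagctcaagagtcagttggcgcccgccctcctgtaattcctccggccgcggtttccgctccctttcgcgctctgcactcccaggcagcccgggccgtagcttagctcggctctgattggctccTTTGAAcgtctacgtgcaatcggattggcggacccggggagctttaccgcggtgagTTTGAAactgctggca
Mki67: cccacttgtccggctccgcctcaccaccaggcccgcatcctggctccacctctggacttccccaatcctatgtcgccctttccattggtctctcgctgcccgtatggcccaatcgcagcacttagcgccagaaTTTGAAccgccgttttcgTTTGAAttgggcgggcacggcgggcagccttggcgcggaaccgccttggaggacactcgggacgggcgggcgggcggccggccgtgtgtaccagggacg
Ccnf: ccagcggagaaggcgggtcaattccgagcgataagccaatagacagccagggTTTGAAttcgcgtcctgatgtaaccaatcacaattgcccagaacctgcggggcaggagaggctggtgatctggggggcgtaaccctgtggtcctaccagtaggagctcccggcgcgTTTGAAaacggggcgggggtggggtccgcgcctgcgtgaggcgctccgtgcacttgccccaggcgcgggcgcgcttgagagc
Each of these windows holds 2 matches, starting 72 and 16 bases before the start in Cdk1, 117 and 99 in Mki67, and 198 and 82 in Ccnf. Of the 18 list members that fell, 14 had a promoter in the table and 7 of those held TTTGAA (50%), against 1 of 6 members that rose (16.7%), 0 of 17 members that were not called, 10.6% of 9009 tested genes with a promoter and 16% of all 27457 promoters. The letters CCAAT, bound by NF-Y, stood in 12 of the 14 (85.7%), in 3 of the 6 (50%), in 11 of the 17 (64.7%), in 35.8% of tested genes and in 34.3% of all promoters. CCAAT matches share no base with TTTGAA in Cdk1 and Ccnf and 1 base in Mki67.

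Genes that mark tubular injury were called about as often as all genes. Of 30 tested, 2 rose and 1 fell, close to the shares over all genes, and the median was -0.08. Havcr1 read 4.84, 7.43 and 12.3 in controls and 6.08, 6.16 and 6.66 at the middle dose, inside the control range (-0.28 ± 0.51, adjusted p = 0.749), while the high animals read 75.7, 62.2 and 69.3. The difference of the middle from the high dose was -3.45 (adjusted p = 0.00125). Lcn2, another urinary injury marker, was above background in no control or middle animal. Clu, Spp1, Timp1, Vim and Cd44, which tubules raise in injury, had changes from -0.20 to 0.02 and none passed (adjusted p from 0.121 to 0.991). Gpnmb, a lysosomal glycoprotein of tubule and phagocytic cells, rose from 33.7, 30.6 and 35.9 to 72.3, 70.4 and 66.5 (1.07 ± 0.11, adjusted p = 0.00107; slide-blocked 0.78, adjusted p = 0.107) and read 159, 141 and 155 at the high dose. The fibrinogen gene Fgb rose from 98, 76.2 and 88.8 to 122, 130 and 109 (0.46 ± 0.12, adjusted p = 0.0385), and the calcium-binding S100a6 fell by 0.36 (adjusted p = 0.0233). Fgb was not called without any of the controls, middle 1 or middle 2, and S100a6 without any of the controls or middle 1.

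The heat shock and ER stress lists held calls in both directions, the inflammation list only falls and the p53 list only rises. Over all genes 7.84% were higher and 4.83% lower. Hspa1a, the inducible HSP70, read 199, 264 and 196 in controls and 291, 184 and 225 at the middle dose (0.08 ± 0.28, adjusted p = 0.881) against 12347, 10151 and 11600 at the high dose. Of 24 heat shock and folding genes 1 rose and 2 fell, the constitutive chaperones Hspa8 and Hspa4 by 0.24 and 0.36. In the inflammation list 0 of 30 rose (0 at an unadjusted limma p under 0.05) and 3 fell, with a median of -0.19, namely Nfkbia (-0.62), Il1rn (-0.39) and Stat3 (-0.30). Ccl2, the monocyte chemokine, varied widely within each group, at 162, 466 and 111 in controls and 154, 235 and 71.4 at the middle dose (-0.56 ± 0.62, adjusted p = 0.58). Of 27 p53 and apoptosis genes 2 rose, Ccng1 and Zmat3, by 0.29 and 0.23, while Cdkn1a and Mdm2 did not pass (-0.14 and -0.15, adjusted p = 0.692 and 0.245). ER stress genes gave 1 riser, Asns (0.35), and 3 that fell, Atf6 (-0.67), Calr (-0.28) and Hspa5 (-0.26).

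Immediate early genes varied between single animals. Of 33 tested, 0 rose (1 at an unadjusted limma p under 0.05) and 4 fell (Klf2, Klf6, Jund and Dusp6), with a median of -0.32. In the slide-blocked fit the median was -1.21, with 0 called higher and 6 lower (0 and 28 at an unadjusted limma p under 0.05). Fos read 13.7, 22.3 and 11 in controls and 12.6, 24.9 and 11.8 at the middle dose, with full overlap (0.05 ± 1.05, adjusted p = 0.982), but 14.5, 402 and 414 in the low animals. Egr1 likewise read 800 and 795 in low animals 2 and 3 and at most 152 in any control or middle animal. Through those animals the slide-blocked fit links middle to control, and its Fos value of -4.57 (adjusted p = 0.0453) is computed from them.

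**Figure D5:**
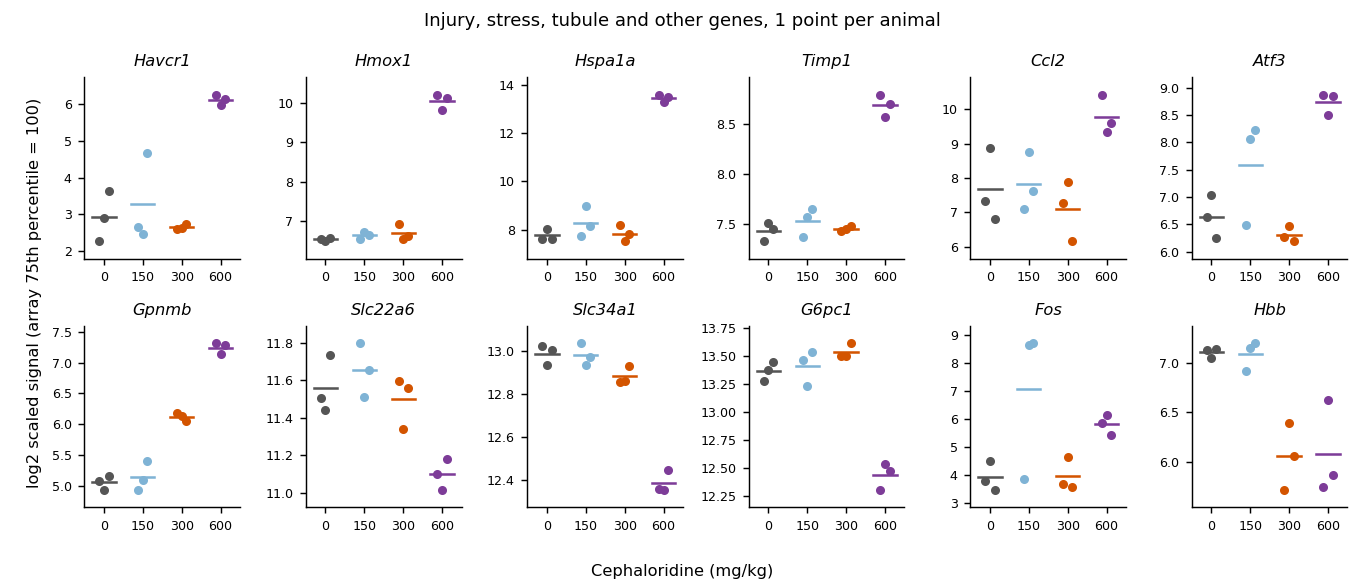
Each panel shows 1 gene, with cephaloridine in mg/kg on the horizontal axis and log2 scaled signal (array 75th percentile = 100) on the vertical axis; points are single animals and bars the mean of 3. Havcr1, Hmox1, Hspa1a and Timp1 lie in or near the control range at 300 mg/kg and well above it at 600 mg/kg; Fos is high in 2 of 3 animals at 150 mg/kg, and Hbb is low in all 3 animals at 300 mg/kg.

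Of 56 proximal tubule transporter genes, 6 rose and 0 fell (4 and 2 after quantile normalization), beside 7.84% higher and 4.83% lower over all genes, and 3 rose without control 1 and 3 without control 2. Beside Abcc2 the risers were the phosphate and urate carriers Slc17a1 (0.46) and Slc17a3 (0.30), the peptide carrier Slc15a1 (0.36), the glutamate carrier Slc1a1 (0.25) and the efflux pump Abcg2 (0.16). The efflux carriers Abcc4, Abcb1a, Abcb1b and Slc47a1 did not pass the limma test. Their changes were -0.03, 0.14, 0.03 and -0.11 (adjusted p = 0.874, 0.529, 0.905 and 0.381). The uptake route of cephaloridine did not pass the test: Slc22a6 (OAT1) read 2906, 2781 and 3400 in controls and 3089, 2595 and 3015 at the middle dose (-0.06 ± 0.10, adjusted p = 0.718), and Slc22a8 (OAT3) read 640, 606 and 683 against 662, 547 and 572 (-0.12 ± 0.10, adjusted p = 0.444). Slc34a1, the sodium phosphate carrier, had a change of -0.10 ± 0.05 (adjusted p = 0.169), whose sign turned to 0.14 when the mean of its probes was used. Against the high dose, 28 of the 56 transporters were higher at the middle dose and 2 lower, beside 14.1% and 9.08% of all genes.

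Of 56 genes of tubular metabolism, 1 rose (Pipox, 0.94) and 5 fell, beside 7.84% higher and 4.83% lower over all genes. Those that fell were Cyp24a1, Cndp1 (-0.50), Aass (-0.39), Miox (-0.24) and Kap (-0.21). The number called lower was 1 without control 1, 0 without control 2 and 1 without control 3. In the slide-blocked fit 0 were called (6 higher and 5 lower at an unadjusted limma p under 0.05). Against the high dose, 34 of the 56 were higher and 1 lower, beside 14.1% and 9.08% of all genes. G6pc1, the last enzyme of glucose output, read 9919, 10632 and 11198 in controls and 11628, 11641 and 12562 at the middle dose (0.18 ± 0.09, adjusted p = 0.21), against 5050, 5946 and 5685 at the high dose. Mpv17l, a peroxisomal protein gene of tubule cells, fell from 3338, 3041 and 3224 to 2152, 2154 and 2180 (-0.57 ± 0.05, adjusted p = 0.000484; slide-blocked -0.47, adjusted p = 0.0893), below every low animal. Cyp2c11, the male-specific P450, fell from 274, 361 and 379 to 109, 130 and 223 (-1.19 ± 0.25, adjusted p = 0.0166; slide-blocked adjusted p = 0.0663), was not called without control 2, and read 62.5, 75.7 and 56.1 at the high dose.

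Cyp24a1, the mitochondrial enzyme that breaks down active vitamin D, moved in opposite directions at the upper doses. It read 95.9, 77.4 and 36.4 in controls, 31.7, 23.1 and 8.28 at the middle dose and 200, 228 and 280 at the high dose. The change at the middle dose was -1.83 ± 0.46 (adjusted p = 0.0311; slide-blocked -1.13, adjusted p = 0.387), and it was not called without control 1, control 2 or middle 3. Cyp27b1, which makes the hormone, did not pass (0.13 ± 0.16, adjusted p = 0.615). Foxe1, a forkhead factor gene, fell from 65.6, 46.9 and 40.9 to 12.3, 16.7 and 7.52 (-2.12 ± 0.48, adjusted p = 0.0224; slide-blocked -0.95, adjusted p = 0.568), with the low animals at 39.6, 39.6 and 12.1, and was not called without control 1, control 2 or middle 3.

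Markers of cell types were taken as lists. All 11 tested proximal tubule markers and all 8 of the thick ascending limb were above background on all 6 arrays. So were 19375 of the 20760 tested genes on all 12 arrays, so this count is no check on the tissue label. Of the 11 proximal tubule markers, 0 passed the limma test in either direction (1 at an unadjusted p under 0.05). In a tissue piece, fewer cells of a type and less RNA per cell cannot be told apart. The shares called over all genes were 7.84% higher and 4.83% lower. Of 9 intercalated cell markers 4 rose and 0 fell, 1 without control 1 and 1 without control 2 (Atp6v1b1 0.50, Rhcg 0.46, Atp6v0d2 0.37 and Slc26a4 0.28), and the summed scaled signal of the list ran from 8516 to 9576 in controls and from 10162 to 10987 at the middle dose. Of 8 principal cell markers 2 rose and 0 fell, 1 without control 1 and 1 without control 2 (Scnn1b 0.31 and Hsd11b2 0.28). Of the 8, 6 had changes above 0. Aqp2 (0.05), Aqp4 (-0.06) and Fxyd4 (-0.24) were among those not called. Of 12 endothelial markers 0 rose and 3 fell, 0 without control 1 and 1 without control 2 (Pecam1 -0.32, Eng -0.31 and Esam -0.30), with a list median of -0.30 and sums of 6846 to 7245 against 6475 to 6767. Of the 12, 2 had changes above 0, Vwf (0.22) and Egfl7 (0.11), and neither passed (limma adjusted p = 0.315 and 0.424). In the slide-blocked fit 0 members of these 3 lists were called, and at an unadjusted limma p under 0.05 these were 4 intercalated markers higher, 2 principal cell markers higher and 2 lower, and 3 endothelial markers lower. The part of such cell types in other changes was not tested. Macrophage markers gave 1 riser, Gpnmb, of 15, with sums of 7690 to 8513 against 8350 to 9671. Neutrophil markers were at the edge of detection, with 2 of 10 tested; S100a9 was above background on 1 control array and 0 middle arrays, so no fold is given. The 3 adrenal markers tested were near background, with sums of 12.6 to 15.1 in controls and 18.6 to 18.7 at the middle dose. Of these, Cyp17a1 and Hsd3b1 were called higher. Neither was called in the slide-blocked fit, with normexp background or with only middle and control arrays; Cyp17a1 was not called when any 1 of the 6 arrays was left out, nor Hsd3b1 without control 1, control 2 or middle 3. No B cell marker was tested.

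Hbb, a hemoglobin beta chain gene, fell. It read 140, 132 and 141 in controls and 52.8, 84.2 and 66.8 at the middle dose (-1.04 ± 0.22, adjusted p = 0.0173; slide-blocked -1.30, adjusted p = 0.191). Of the 5 red cell markers tested it was the only one called, and it was not called without control 1 or control 2. Hba-a3, Hbb-b1 and the erythroid Alas2 had changes of -0.41, -0.44 and -0.64 (adjusted p = 0.191, 0.071 and 0.0642), with the lowest value of each in middle animal 1. The remaining marker, Slc4a1, which also marks intercalated cells, had a change of 0.07 (limma adjusted p = 0.728). The summed signal of the list ran from 21019 to 24055 in controls and from 12666 to 20511 at the middle dose. What part blood left in the tissue played in other changes was not tested.

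Fewer genes separated the middle dose from the low dose than from the high dose. Against the shared controls, 21 genes were called at the low dose (0.101%), 12 higher (0.0578%) and 9 lower (0.0434%), and 7257 at the high dose (35.0%), 3471 higher (16.7%) and 3786 lower (18.2%). Between middle and low, 47 genes were called (0.226%), 39 higher (0.188%) and 8 lower (0.0385%). The slide-blocked count was 67, with 30 higher and 37 lower, so the mostly higher split was not kept. That count rests on slides 2 and 3, which held animals of both doses. Named genes among the 47 included Ugt2b7, Abcc2, Apoa4, Nqo1, Fbp2, Pir, Alas1, Gpnmb, Ptgr1, Tph1, Lgals2, Cdt1 and Mcm2, all higher, and Mpv17l, lower. Ptgr1, a reductase of prostaglandins and reactive aldehydes, read 860, 779 and 817 in controls, 949, 872 and 931 at the low dose and 1473, 1658 and 1431 at the middle dose, and 1552, 1381 and 1475 at the high dose, a step between 150 and 300 mg/kg. Tph1, the peripheral serotonin-forming enzyme, and Lgals2, a galectin, showed similar steps, with 13.7, 13.4 and 12.7 and with 45, 42.8 and 37.3 at the middle dose against at most 8.52 and 26.8 at the low dose. Between middle and high, 4803 genes were called (23.1%), 2917 higher (14.1%) and 1886 lower (9.08%), and 2153 in the slide-blocked fit. Genes called against control and beyond both neighbouring doses in 1 direction numbered 5, 2 higher and 3 lower; 1 had a reference symbol, the unconventional myosin Myo9b, which fell from 20.8, 21.3 and 22.7 to 18.8, 17.5 and 17.6 (-0.26 ± 0.05, adjusted p = 0.0147), and the other 4 are unnamed here.

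The middle animals varied more among themselves than those of other groups. The median SD over tested genes was 0.11 in the middle group, 0.065 in controls, 0.073 at the low dose and 0.07 at the high dose. In middle 1, 2 and 3 there were 110, 167 and 187 genes that lay more than 2-fold from the mean log2 signal of the other 2. The weights limma gave these arrays were 0.717, 0.308 and 0.638, the lowest of the 12. Middle animals lay on 3 slides, as did the low animals, and controls on 1. Among named genes the largest SDs came mostly from 1 animal: Ttyh2 read 20.6, 4.45 and 3.23, Paip2b 33.9, 6.41 and 7.69, Cst7 20.1, 5.69 and 5.61, Dusp7 15.6, 4.26 and 5.14 and Cdkl2 11.1, 3.64 and 2.96, all high in middle 1. Pdzd7 was high in middle 3 (21.4 against 5.48 and 4.47), Ephb2 in middle 2 (17.2 against 4.44 and 5.51), and Rps26 ran from 7 in middle 3 to 35.1 in middle 2. None of these 8 passed the test against control, and 1 low array of Cdkl2 was missing from its fit. Other named genes called at the extremes were the ATPase gene Atad1 (1.93, though its other probe gave 0.03), Zbtb16 (at least 1.27-fold, controls not above background), Or10c1 (1.43, with middle 3 near the controls at 6.13), Sbsn (above background only at the high dose), Cnr1 (-1.49), Apold1 (-1.27) and Kcnj11 (-1.18).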

How the data were processed

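Kidney cortex RNA of 12 rats was measured on 1-colour Agilent arrays, 1 per animal, and this text uses the 3 middle dose and 3 control arrays, with the other 6 in the fit. The intensity values were made by the authors with Agilent Feature Extraction 9.1.3.1, per the file headers, as spot signals with the local background subtracted and spatially detrended, with no scaling between arrays. The authors' deposited value table holds a linear ratio, which within 0.1% is the processed signal, with a floor of 5, divided by 1 constant per array near its median; it was used as an alternative. Its direction and scale were settled by that match.

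Spots flagged as outliers and control spots were left out, spots of a probe were averaged on the log2 scale, and each array was centred on its 75th percentile. The brightest probe stood for a gene. Of 41012 probes, 10735 were named through RefSeq by accession, 5571 by symbol and 3729 by an older symbol, and 20977 are unnamed here. A gene was tested where any group had all 3 of its arrays well above background, with limma 3.58.1 (R 4.3.3), 1 mean per group over all 12 arrays, Benjamini-Hochberg adjustment and a threshold of 0.05. The precision is limited by 3 animals a group. Samples are animals, so p-values measure the spread between arrays of different animals. In the main fit that spread holds slide differences for low and middle animals but not for control or high animals. The script was tested on simulated data.

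Members and gene lists were chosen with earlier results of these data known, so counts in lists are descriptions. Named were the 12 largest called rises and falls with no overlap, the 2 largest per list and direction, genes past both neighbouring doses, the 8 with the largest spread, and a fixed set; all other genes were chosen after their values were seen. Replicate numbers did not pair middle with control animals: deviations of same-numbered animals correlated at -0.015, 0.063 and -0.053. Alternatives changed scaling, background correction, filter, probe rule, batch terms, array weights, moderation, samples fitted and single arrays left out. Some genes counted in lists are not reported here by name.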

Additional observations from a re-analysis of the deposited data

Results flagged for a closer look

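Some named genes moved in opposite directions at the upper doses: they were called in 1 direction at 300 mg/kg, in the other at 600 mg/kg, each against the same controls, and the difference between those doses itself passed the limma test. Over all genes, 33 were lower at the middle and higher at the high dose and 43 were the reverse. On the log2 scale, middle minus high was -3.68 for Cyp24a1, -1.65 for Ska1, -1.33 for Ccna2, -1.19 for Mki67, -1.10 for Ccnf and -0.92 for Bub1. It was 0.75 for the peptide carrier Slc15a1 and 0.49 for the glutamate carrier Slc1a1. Groups of 3 animals are too small to test single animals as outliers.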

How the results depend on the processing

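Of 124 genes singled out here and called against control, 14 kept their call under every alternative tried and 36 under all but slide as a block; 0 changed sign. Calls were kept by 117 under median scaling, 113 under quantile normalization, 113 with another background correction, 40 with only the compared groups, 65 without control 1 and 66 without control 2. Middle against control gave 2630 calls, and 867 with no filter, 268 with only the compared groups, 46 with slide as a block, 1242 with slide as a random block and 669 to 2762 when 1 array was left out. The replicate block gave 2055 calls, and the numbers do not pair the samples. Middle against low gave 47, and 10 with array weights, 29 in the authors' table, 26 under median scaling, 14 with no filter, 88 with normexp background, 17 with the replicate block, 31 with scan day as a block, 107 with trended moderation, 0 with only the compared groups (limma; 2024 at an unadjusted p under 0.05) and 12 to 109 when 1 array was left out. Middle against high gave 4803, and 3184, 2586 and 2153 with no filter, only the compared groups and slide as a block, and 3339 to 4693 when 1 array was left out. Genes past both neighbouring doses numbered 5, and 10 with all arrays above background, 0 with array weights, 3 under median scaling, 3 under quantile normalization, 3 with scan day as a block, 1 with no filter, 15 with normexp, 0 with the replicate block, 17 with trended moderation and 0 to 38 when 1 array was left out; the fit of only 2 groups gives no value. The median SD of the middle animals stayed between 0.087 and 0.12.

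Genes whose sign changed had not been called. With slide as a block these were Fos (-4.57), Cdkl2 (-0.26), Gclm (-0.22), Hspa1a (-0.70), Mdm2 (0.015), Pck1 (0.30), Pdzd7 (-0.67), Rps26 (0.90), Slc22a6 (0.12), Slc22a8 (0.21) and Timp1 (-0.23), and with slide as a random block Fos (-0.77), Hspa1a (-0.059) and Timp1 (-0.020). With scan day as a block they were Clu (0.052), Fos (-0.27), Hspa1a (-0.18) and Paip2b (-0.048); Clu was 0.034 under median scaling and 0.034 in the authors' table, Fos -0.17 with array weights and Slc34a1 0.14 with the mean of probes. The cause was not tested. Signals near background limit the precision of changes in dim genes.
When 1 array was left out, sign changes gave these ranges: Ccl2 -1.001 to 0.035, Cdkn1a -0.23 to 0.0058, Clu -0.043 to 0.051, Cyp27b1 -0.051 to 0.28, Dusp7 -0.85 to 0.088, Ephb2 -0.80 to 0.18, Fos -0.30 to 0.33, Gclc -0.15 to 0.034, Havcr1 -0.61 to 0.069, Hspa1a -0.095 to 0.23, Hspa1b -0.50 to 0.10, Paip2b -0.43 to 0.77, Pdzd7 -0.21 to 0.92, Rps26 -0.84 to 0.32, Slc22a6 -0.12 to 0.024, Timp1 -0.028 to 0.062 and Ttyh2 -0.13 to 1.21.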

Other observations

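Matrix and distal nephron genes gave a few further calls, beside 7.84% higher and 4.83% lower over all genes. Of 33 matrix and fibrosis genes, 0 rose (1 at an unadjusted limma p under 0.05) and 3 fell: Loxl2, a collagen cross-linking oxidase, by 0.60 (296, 300 and 261 in controls, 199, 173 and 194 at the middle dose, adjusted p = 0.0063), the metalloproteinase inhibitor Timp3 by 0.32 and Mmp9 by 0.30. In the distal convoluted tubule list, Calb1, which binds calcium, rose by 0.52 (adjusted p = 0.0441), the thiazide-sensitive carrier Slc12a3 rose by 0.40 (adjusted p = 0.0214) and the sodium calcium exchanger Slc8a1 fell by 0.42 (adjusted p = 0.0267). The last 3 were each not called without control 1, control 2 or middle 2, nor Calb1 without control 3 or middle 1, nor Slc8a1 without middle 3. Egf and Cldn10 of the thick ascending limb rose by 0.31 and 0.23, and neither was called without control 1 or without control 2, nor Egf without middle 2. Umod, the uromodulin gene of that segment, read 26946, 26811 and 28954 in controls and 28304, 30816 and 30127 at the middle dose and did not pass (adjusted p = 0.188).

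Of 55 genes in the respiratory chain and citrate cycle list, 3 rose (5.45%), below the 7.84% called higher over all genes. Among them were the cycle enzymes Cs (0.22) and Dlst (0.21). In the list 0 fell (3 at an unadjusted limma p under 0.05), beside 4.83% lower over all genes. The number called higher was 1 without control 1, 0 without control 2 and 0 with only middle and control arrays in the fit. The split was 0 higher and 2 lower after quantile normalization and 10 and 0 with another background correction. Of 7 podocyte markers tested only the factor Wt1 was called, with a fall of 0.34 (limma adjusted p = 0.0303). The 2 with changes above 0 were Synpo (0.23) and Plce1 (0.03). In the list 0 were called lower without control 1, without control 2, without middle 2 or in the slide-blocked fit. Mt1, a metallothionein, did not pass (-0.41, limma adjusted p = 0.182).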
